A study of Mus musculus with 30 samples.

Results

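Maturation of the hippocampus between postnatal day 10 (P10) and P28 to P32 was followed in mice heterozygous for Nf1. The comparison used 7 of the 30 samples of the series, chosen by title: all 4 Nf1 heterozygous P10 pools, and all 3 Nf1 heterozygous late pools, of which 2 were from P28 and 1 from P32. C57BL/6 mice had been crossed with mice heterozygous for Nf1, and both genotypes of the series came from such litters. Each sample was RNA from the hippocampi of 2 male pups of one genotype, taken from flash-frozen brains and hybridised to 1 Affymetrix mouse expression array. Liver was kept to determine the genotype. The labels name neither the Nf1 allele nor any treatment. The wild-type counterpart, used for comparison only, had 3 pools from P10 and 4 from P28 and P32.

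Nf1 encodes neurofibromin, a protein that switches off the small GTPase Ras and so restrains signalling through the MAP kinase cascade. Loss of 1 copy causes neurofibromatosis type 1 in people, in whom learning difficulties are common, and Nf1 heterozygous mice are used as its model. In the mouse hippocampus the days compared here span the time when oligodendrocytes wrap axons in myelin, newborn granule neurons extend their processes, astrocytes mature and inhibitory and excitatory synapses take on their adult makeup.

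Values below are the deposited intensities, given for P10 pools 1a, 1b, 2a and 2b and then for late pools P28 1a, P28 1b and P32 1a. These codes are those of the sample titles, which do not say what they stand for. A change is the mean log2 intensity of the late pools minus that of the P10 pools, with its standard error, and a gene was called to rise or fall when its limma p adjusted by the Benjamini-Hochberg method over all 12422 non-control probe sets was below 0.05. Changes given below without a remark passed this threshold. The labels do not say that pools came from separate litters, so the p-values reflect variation among pools that may share litters.

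Marker genes were read as a check of the tissue label, which they cannot settle alone. Of the hippocampal markers set for this check, readings are given for Hpca and Camk2a only, so the check shown is partial. Hpca, which encodes the hippocampal calcium sensor hippocalcin, read 2057, 1816, 1810.5 and 2064 in the P10 pools and 2793, 3459 and 3016 in the late pools. Gabra6, a subunit typical of cerebellar granule cells, read between 3.48 and 28.6. Camk2a, another marker of hippocampal neurons, gave erratic readings on its brightest probe set, which are given further below. Nf1 itself could not serve as a check of the genotype. Its single probe set read 2.15, 2.28, 4.65 and 11.5 at P10 and 5.89, 12.4 and 3.44 in the late pools, dimmer than most, with its mean at percentile 13.5 of all probe sets. Over the 7 heterozygous and 7 wild-type pools of these ages the Nf1 difference was -0.11 on the log2 scale (exact permutation test within age, two-sided, 630 assignments, p = 0.852).

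Some measures of the arrays moved with age. The median intensity was 57.4 ± 1.5 (SD, n = 4) in the P10 pools and 50.7 ± 0.52 (SD, n = 3) in the late pools (exact permutation test, two-sided, p = 0.0286, the smallest p that 35 assignments allow). The log2 ratio of the 3' to the 5' Actb control probe set was 0.25 ± 0.09 at P10 and 0.47 ± 0.06 in the late pools (exact permutation test, p = 0.0571). The Gapdh ratio was -0.03 ± 0.07 and -0.02 ± 0.10 (exact permutation test, p = 0.914). With the Actb ratio in the model 3027 probe sets were called in place of 3021. These totals do not show that the same probe sets were called, and some named genes, among them Fgfr3, Igf2 and Mapk7, lost their call. All 30 arrays had been brought to a nearly equal trimmed mean, between 150.083 and 150.09.

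Over the span of heterozygous maturation 3021 of 12422 probe sets were called (24.3%), of which 1344 rose (10.8%) and 1677 fell (13.5%). With each array centred on its own median, the 3122 called probe sets split into 2113 higher and 1009 lower, and after quantile normalization the 2852 called split into 1511 and 1341. The median change of all probe sets was -0.12, against 0.05 after centring, so a small change in either direction depended on the scale. Rises over 2-fold were called for 333 probe sets (2.68%) and falls of that size for 534 (4.30%). Changes over 4-fold were rarer, at 51 probe sets higher (0.411%) and 66 lower (0.531%). Counted by gene, with the brightest probe set of each, 2277 of 8251 genes were called (27.6%), 1072 of them higher (13.0%) and 1205 lower (14.6%). These shares are the background for the gene lists that follow. The late pools lay wholly above the P10 pools for 1485 genes (18%) and wholly below them for 1908 (23.1%).

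Pools of one age resembled each other more than pools of different ages. Pearson's r over probe sets was 0.9546 to 0.9665 between P10 pools, 0.9679 to 0.969 between late pools, and 0.9361 to 0.9492 across the span. These are correlations across probe sets within pairs of pools and carry no test.

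**Figure D1:**
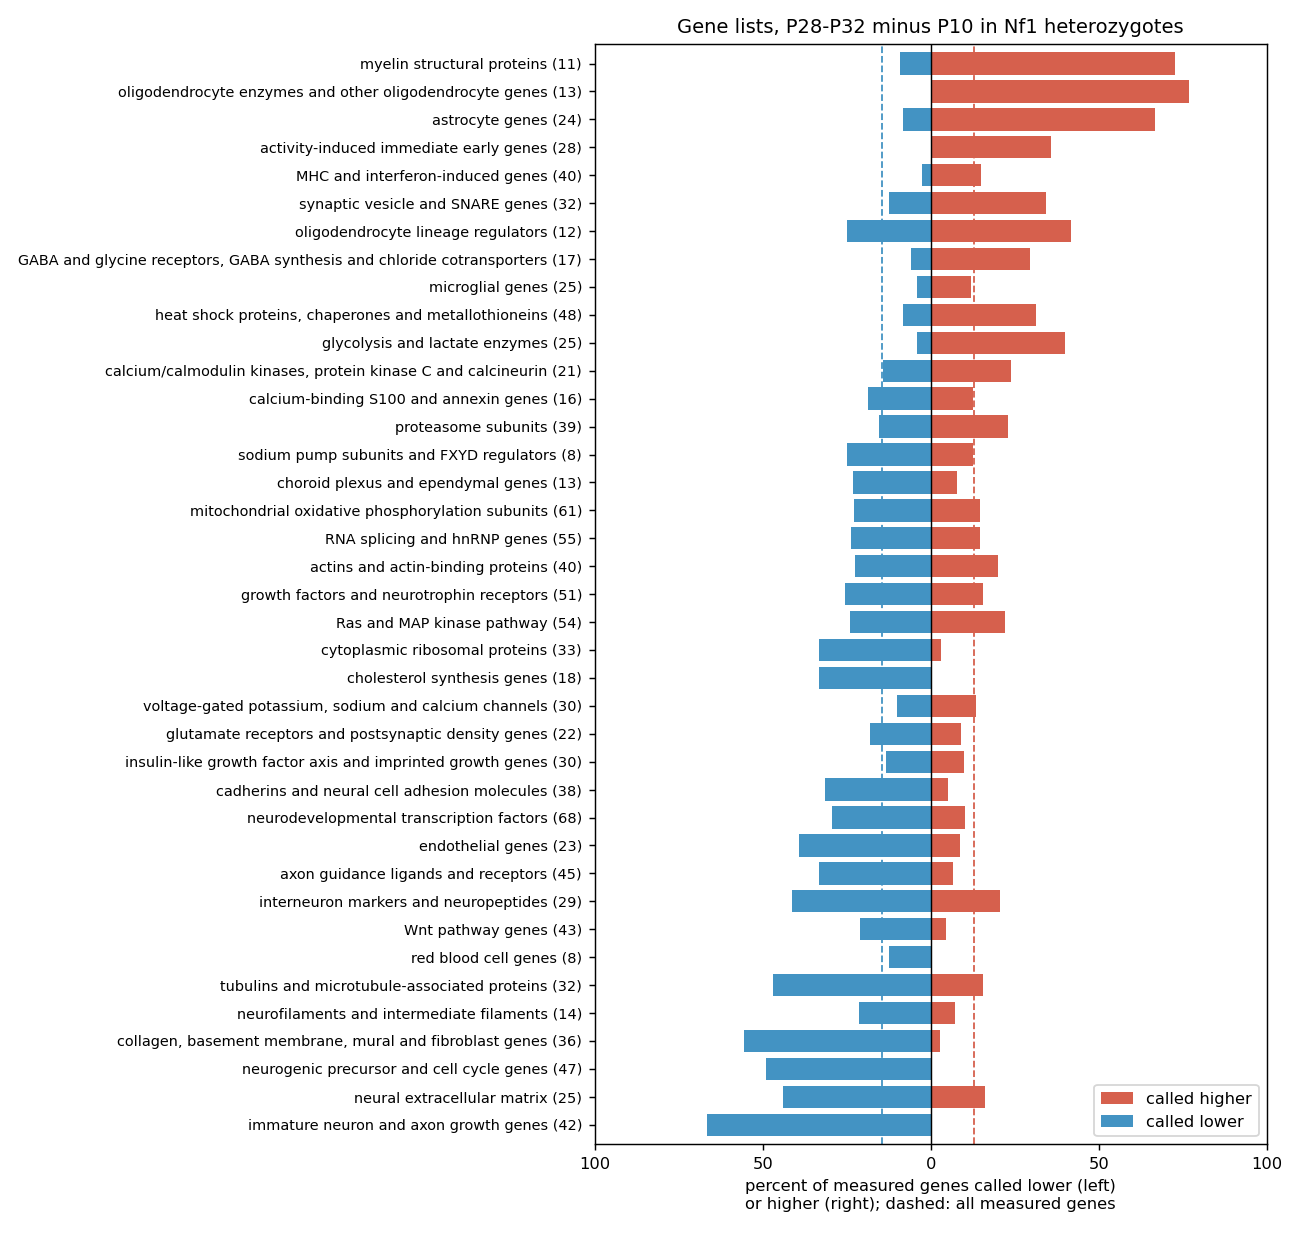
Share of the measured genes of each of 39 gene lists that were called lower (bars to the left) or higher (bars to the right) in late against P10 heterozygous pools, in percent, with the number measured in parentheses, lists ordered by their median change, and dashed lines at the shares of all 8251 genes (13.0% higher, 14.6% lower). Myelin, oligodendrocyte and astrocyte genes lie mostly to the right and immature neuron, cell cycle and matrix genes mostly to the left. In 9 lists, among them the endothelial, Ras and mitochondrial lists, the balance turned when arrays were centred on their median, and in 4 it became level.

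Genes of the myelin sheath showed the largest rises of the span. Of the myelin structural protein list, 8 of 11 measured genes rose and 1 fell, with a median change of 2.76, against a median of -0.10 over all genes. The summed intensity of the list was between 1915 and 2039 in the P10 pools and between 10046 and 10421 in the late pools. In pooled tissue, more cells of a type and more RNA per cell cannot be told apart.

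Mog, an immunoglobulin-like protein on the outer face of the sheath, read 2.46, 8.28, 12.5 and 3.86 in the P10 pools and 389, 375 and 415 in the late pools. All P10 pools were dim and all late pools far above them. The rise was 6.13 ± 0.44 on the log2 scale or 70.2-fold (limma adjusted p = 4.91e-10). Since the P10 readings were close to the floor of the array, the size of this fold rests on dim values: on log2(value + 32) the Mog change was 3.46. Mobp, a small basic protein of compact central myelin, read 41, 51.3, 21.2 and 49.2 at P10 and 2459, 2296 and 2251 later. Its rise was 5.92 ± 0.42 or 60.6-fold (limma adjusted p = 4e-10).

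The regions just upstream of these 2 leading genes are shown because their transcripts had the largest rises among the genes named by the rule. They are the 250 bases before the annotated start, from RefSeq on GRCm38.p6, read 5′ to 3′ on the strand of the gene, for Mog on the minus strand at chr17:37023399-37023648 and for Mobp on the plus strand at chr9:120149492-120149741. Capitals mark ACAAAG or its reverse complement CTTTGT, the core word bound by SOX proteins, the family to which the oligodendrocyte regulator Sox10 belongs. The word was chosen after the Mobp sequence had been seen.
Mog: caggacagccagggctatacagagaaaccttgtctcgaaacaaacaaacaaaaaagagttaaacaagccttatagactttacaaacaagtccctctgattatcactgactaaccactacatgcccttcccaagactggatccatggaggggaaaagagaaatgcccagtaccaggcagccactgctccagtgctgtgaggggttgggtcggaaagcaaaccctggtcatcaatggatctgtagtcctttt
Mobp: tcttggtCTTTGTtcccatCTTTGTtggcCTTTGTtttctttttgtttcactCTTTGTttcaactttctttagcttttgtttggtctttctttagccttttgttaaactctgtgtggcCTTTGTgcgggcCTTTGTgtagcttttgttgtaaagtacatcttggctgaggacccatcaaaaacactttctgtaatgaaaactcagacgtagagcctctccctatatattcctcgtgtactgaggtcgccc
The Mobp window held 6 copies of CTTTGT and no ACAAAG, and the Mog window held neither. Among 32851 windows of the same length in the RefSeq table, 16.5% held at least 1 copy on either strand, and the Mobp window was the 1 window with 6 or more. Of the 15 genes with the largest rises, 8 had exactly 1 window in the table, and 2 of these held the word, Mobp and Apod. A match is a string of letters and not a measured binding site.

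Other sheath proteins rose by less, Mbp and Cldn11 from brighter starting levels than Mog and Mobp. Mbp, the basic protein that compacts the membrane layers, was already bright at P10, at 474, 602, 478 and 581, and reached 3414, 3569.7 and 3801 in the late pools. Its rise of 2.76 ± 0.12 (6.77-fold) had the smallest adjusted p of the genes named here (limma, 2.11e-13). The standard error draws on the spread within the groups of all 30 arrays, not on these pools alone. Cldn11, the tight junction protein of the sheath, read 70.1, 78.8, 70.4 and 92.5 and then 1304, 1020.0 and 1177, a rise of 3.91 ± 0.21. Mag, which sits on the innermost wrap facing the axon, went from 34.5, 58, 30.1 and 57.1 to 650.3, 755 and 879.9, a rise of 4.13 ± 0.27, although a second, dimmer Mag probe set was called lower (-1.28, limma adjusted p = 0.000385). Mal, a lipid raft protein, read 20.3, 18.6, 29.1 and 35.7 and then 716, 682 and 642, a rise of 4.76 ± 0.46. None of these 4 genes had overlapping age groups. Smaller rises were called for Gjb1 (1.18), the connexin 32 gene, and Gpm6b (0.47). Plp2 fell (-1.02), and Cnp (-0.51) and Pmp22 (0.20) were not called.

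Oligodendrocyte enzymes and other transcripts of the same cells moved with the sheath genes. On this list 10 of its 13 measured genes rose and 0 fell, with a median change of 1.38. Gsn, the actin-severing protein gelsolin, read 49.9, 93.7, 76.5 and 60.2 at P10 and 732, 709 and 796 later, a rise of 3.45 ± 0.30. Evi2a, a membrane protein gene embedded within an intron of Nf1, read 29.2, 38.8, 34.7 and 42.3 and then 358, 318 and 295, a rise of 3.17 ± 0.27 (limma adjusted p = 9.91e-09). Both genes had late pools far above every P10 pool. Septin4, a septin of the myelin sheath, read 101, 101, 97.3 and 87.3 at P10 and 756, 689.9 and 716 in the late pools. Ugt8a, the enzyme that makes the myelin lipid galactosylceramide, rose by 2.60 ± 0.26 and the lipid carrier Apod by 2.68 ± 0.36. Further rises were those of Qdpr (1.61), Car2 (1.38), Gpd1 (1.19), Cryab (1.04) and Gstm1 (0.37), among them enzymes of pteridine recycling (Qdpr) and carbon dioxide hydration (Car2). Klk6 (-0.17), Bin1 (0.10) and Gamt (0.14) were not called.

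Regulators of the lineage went both ways. Of 12 measured regulators 5 rose and 3 fell, with a median of 0.27. Nkx6-2, a homeobox factor of myelinating cells, read 7.01, 4.51, 8.42 and 7.25 at P10 and 67.2, 55.4 and 91.5 later, a rise of 3.40 ± 0.40 from a dim level. Erbb3, a neuregulin co-receptor, read 32.9, 17.2, 18.6 and 33.2 and then 171, 151 and 129.8, a rise of 2.62 ± 0.35. Myrf, the factor that switches on myelin genes, read 46.9, 64, 75.5 and 57.7 and then 112, 126 and 171, a rise of 1.16 ± 0.19. In Nkx6-2 and Myrf the late pools lay above all P10 pools, as was required of Erbb3, among the 15 largest rises. Id4 (1.02) and Sox10 (0.42) rose as well. Pdgfra, the growth factor receptor that marks oligodendrocyte precursors, fell, from 796, 863, 796 and 885 to 306, 319 and 411, a change of -1.29 ± 0.20 (limma adjusted p = 3.67e-05), while its other, dimmer probe sets were not called (-0.45 and 1.63). The Wnt effector Tcf7l2 (-0.63) and Notch1 (-0.55) also fell. Lpar1, a lysophosphatidic acid receptor outside the lists but among the 15 largest rises, went from 13.4, 64.2, 46.4 and 25.5 to 239.7, 219.7 and 244.

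**Figure D2:**
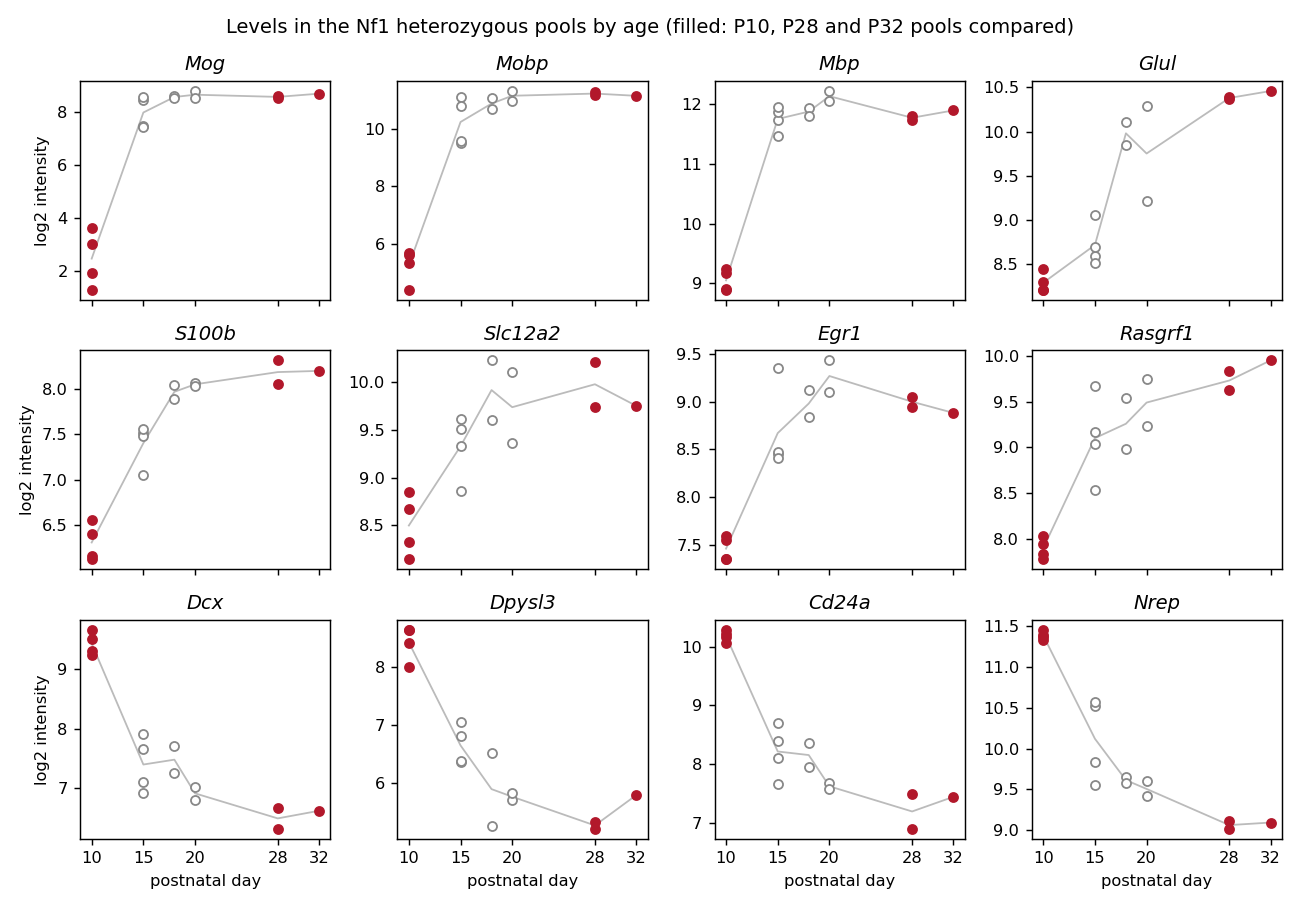
Log2 intensity (y axis, own scale in each panel) against postnatal day (x axis) for 12 genes in the heterozygous pools, 1 circle per pool, with filled circles for the pools compared, open circles for the pools of intermediate ages and a line through the age means. Mog, Mobp and Mbp are near their late level by day 15 or 18, while Glul and S100b rise over a longer time and Dcx, Dpysl3, Cd24a and Nrep descend.

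The intermediate ages place most of the myelin rise early in the span. At P15 the heterozygous mean of Mog was 7.99 on the log2 scale, against 2.48 at P10 and 8.62 in the late pools. Mbp stood at 11.75 at P15, against 9.05 and 11.81. Glul, in contrast, was at 8.72 at P15, close to its P10 mean of 8.29 and well short of 10.41. The difference in timing was not tested.

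Astrocyte genes mostly rose, by smaller amounts than those of myelin. Of the astrocyte list 16 of 24 measured genes rose and 2 fell, with a median of 0.59. Glul, glutamine synthetase, which converts glutamate taken up from synapses, read 296, 349, 296 and 314 in the P10 pools and 1325, 1342 and 1409 in the late pools. The 3 late pools differed little from each other and lay far above every P10 pool, a rise of 2.12 ± 0.18 or 4.34-fold (limma adjusted p = 9.04e-09). A dimmer probe set of Glul was called lower (-0.71, limma adjusted p = 0.00299). S100b, a calcium-binding protein of astrocytes and oligodendrocytes, read 93.9, 71.1, 69.4 and 84.3 and then 267, 319 and 294, a rise of 1.89 ± 0.13. Gfap, the astrocyte intermediate filament, rose by 0.84 ± 0.21, from 322, 294, 337 and 307 to 606, 606 and 490.1.

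The 2 connexins of astrocytes rose unequally, with Gjb6 (connexin 30) at 1.10 and Gja1 (connexin 43) at 0.48. The metallothioneins Mt1 (1.33) and Mt2 (1.09), which bind zinc and copper, rose too, as did Itih3 (1.74), Ntsr2 (1.12), Ndrg2 (0.98) and Clu (0.74). Fgfr3 was called to rise (1.56 ± 0.56) but read 11.2, 10.1, 13.6 and 0.746 at P10, and without P10 pool 2b, at 0.746, it was no longer called, nor without any single late pool. The glial glutamate transporter Slc1a2 changed by 0.00 and Apoe by -0.19, and neither was called. Id3, a factor of immature glia, fell (-1.05). Aqp4, the water channel of astrocyte endfeet, read 1078, 1181, 1238 and 1067 and then 1026, 844 and 534, a change of -0.56 ± 0.17 (limma adjusted p = 0.0146). That call was lost without the P32 pool and with arrays centred on their median. A dimmer probe set of Aqp4 was called lower as well, by more (-0.83, limma adjusted p = 0.000959).

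Most genes of young neurons extending axons fell. On the immature neuron list 28 of 42 measured genes fell and 0 rose, with a median of -1.03. The summed intensity of the list was between 51369.9 and 55409.6 in the P10 pools and between 29552 and 30359 in the late pools. Dcx, the microtubule-binding protein doublecortin of migrating neurons, read 726, 607, 638 and 813 at P10 and 102, 79.6 and 98.3 in the late pools. The age groups were far apart, a change of -2.90 ± 0.20 or 7.47-fold lower (limma adjusted p = 2.76e-10). Dpysl3, a mediator of growth cone collapse, read 399, 256, 339 and 396 and then 40.1, 37 and 55.4, a change of -2.98 ± 0.22. Cd24a, a surface glycoprotein of newborn neurons, read 1252, 1143, 1194 and 1065 and then 179, 119 and 173, a change of -2.91 ± 0.20.

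Nrep, a neuronal protein linked to regeneration, was the brightest of the 15 largest falls, at 2648, 2564, 2686 and 2809 in the P10 pools and 552, 518 and 546 later, a change of -2.31 ± 0.18. L1cam, an adhesion molecule of growing axons (-2.30 ± 0.20), and Rac3, a small GTPase of neurons (-2.57 ± 0.36), fell. Gap43, the growth-associated protein of axon terminals, kept the same level within each age, with 1951, 1903, 1959.8 and 1909 at P10 and 968, 908 and 956 later, a change of -1.03 ± 0.17. Falls were also called for Tmsb10 (-1.71), Crmp1 (-1.54), Sox11 (-1.52), Fabp7 (-1.51), Sox4 (-1.39), Ncam1 (-1.36), Stmn2 (-1.26), Nnat (-1.24), Marcksl1 (-1.09), Dpysl2 (-1.07), Tubb3 (-0.81) and Stmn1 (-0.62). Among the 14 genes not called were Basp1 (-0.18) and Stmn3 (-0.24), growth cone proteins, and the neuronal factors Neurod2 (0.12), Neurod6 (0.06) and Prox1 (-0.39).

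Falls were also called among genes of neurogenic precursors and dividing cells, some of them from low levels. Of 47 measured neurogenic precursor and cell cycle genes 23 fell and 0 rose, with a median of -0.59, while after centring arrays 17 fell and 2 rose. Cdk1, the kinase that drives entry into mitosis, read 63.9, 81, 66.4 and 27.8 at P10 and 6.06, 3.45 and 5.59 later, a change of -3.51 ± 0.47. Top2a, the topoisomerase of dividing cells, read 16, 34.6, 14.9 and 34.3 and then 2.84, 2.44 and 4.7, a change of -2.85 ± 0.68. The late readings of both were near the bottom of the scale, so the sizes are imprecise, and on log2(value + 32) the Cdk1 change was -1.27. Other falls included Nusap1 (-2.89), Cks2 (-2.0), Cdc20 (-1.69), Rrm2 (-1.44), Ccnd2 (-1.04), Mcm7 (-1.13) and Ezh2 (-0.62). Mki67, a proliferation marker, read 51.6, 41.1, 37.4 and 46.6 and then 26.2, 32.9 and 35.6, a change of -0.49 ± 0.25 that was not called, while a dimmer probe set of the gene was called lower (-1.91, limma adjusted p = 0.018).

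The cytoskeleton changed in composition. Among tubulins and microtubule-associated proteins 15 of 32 measured genes fell and 5 rose. Map2, the dendritic microtubule protein, read 95.6, 104, 99.6 and 131 at P10 and 60.4, 41.4 and 29.9 later, a change of -1.34 ± 0.21, and Stmn2 (-1.26 ± 0.11) and Tubb6 (-1.13 ± 0.19) fell too. Map7 rose (1.06 ± 0.17), from 78.7, 97.8, 101 and 103 to 258, 166 and 180.4. Among 40 measured actins and actin-binding proteins 8 rose and 9 fell, a balance that turned to 11 and 8 after centring. Tmsb10, which sequesters actin monomers, was bright throughout and went from 4088, 4358, 4692 and 4340.1 to 1248, 1408 and 1364, a change of -1.71 ± 0.16 (limma adjusted p = 2.87e-08). Actb (-1.84 ± 0.34) and Cap1 (-0.89 ± 0.25) fell, the latter not called without P28 1b, whereas Gsn, which severs filaments and is on this list as well, rose. Of 14 neurofilament and other intermediate filament genes, Gfap alone rose and 3 fell, Prph (-2.47), Nes (-0.95) and Ina (-0.49).

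Among developmental regulators and guidance cues more genes fell than rose, though for the former this depended on the scale. Of 68 measured neurodevelopmental transcription factors 7 rose and 20 fell, but after centring arrays 13 rose and 15 fell. Of 45 axon guidance genes 3 rose and 15 fell, or 5 and 13 after centring. Sox11, a factor of postmitotic young neurons, read 426, 629, 786 and 554 and then 187, 192 and 237, a change of -1.52 ± 0.23. Sox4, its close relative, fell (-1.39 ± 0.17), and so did Myc (-2.09 ± 0.29). Sema6c, a transmembrane semaphorin, read 146, 157, 166 and 144 at P10 and 18.5, 54.8 and 37.2 later, a change of -2.19 ± 0.45 with wide spread between the late pools. Of 38 cadherins and neural adhesion molecules 2 rose and 12 fell, or 4 and 7 after centring. Ncam1 read 2297, 2280.2, 2317 and 2042 and then 848, 796 and 973, a change of -1.36 ± 0.11 (limma adjusted p = 5.06e-09). Cdh4 fell (-2.04 ± 0.38) and the protocadherin Pcdh7 was called higher by its brightest probe set, from a dim level (1.93 ± 0.37), and lower by another (-1.17, limma adjusted p = 0.0242). Of 43 Wnt pathway genes 2 rose and 9 fell, or 3 and 6 after centring, with Fzd9 (-1.20) among the falls and Frzb (1.09) and Wnt3 (1.51) as the rises. The Frzb call was lost without any one of P10 2b, P28 1a and P28 1b.

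Among matrix and vessel wall genes more fell than rose. In the neural extracellular matrix list 11 of 25 measured genes fell, 4 rose and 10 were not called, against 13.0% of all genes higher and 14.6% lower. In the list of collagens, basement membrane, mural and fibroblast genes 20 of 36 fell and 1 rose, with a median of -0.58. After centring, 14 of that list fell and 2 rose. The members given here are all falls. Tnc, a tenascin of the developing brain, read 185, 145, 116 and 127 at P10 and 44.8, 42.8 and 36.3 later, a change of -1.78 ± 0.25. Reln, the signal secreted by Cajal-Retzius cells and interneurons, read 677, 520.3, 541 and 673 and then 231, 267 and 338, a change of -1.12 ± 0.14 (limma adjusted p = 3.42e-06). Eln, elastin, read 756, 789, 480.1 and 497 and then 117, 111 and 156, a change of -2.28 ± 0.36. In all 3 the late pools lay below every P10 pool. The basement membrane genes Col18a1 (-1.65 ± 0.29), Nid1 (-2.08 ± 0.42) and Nid2 (-1.70 ± 0.29) fell, as did Serpinh1, the collagen chaperone (-1.33 ± 0.26).

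Endothelial genes went both ways. Of 23 measured genes 9 fell and 2 rose, although after centring arrays 4 fell and 5 rose. Eng, the endoglin co-receptor of growing vessels, read 521, 722, 736 and 491 at P10 and 209.7, 225 and 290.1 later, a change of -1.34 ± 0.17. The transferrin receptor Tfrc (-0.99) and the receptor Tie1 (-0.91) fell too, while Pecam1 (-0.28) and Cdh5 (-0.33) were not called. The 2 rises were those of blood-brain barrier transporters, the glucose carrier Slc2a1 and the drug pump Abcb1a. Slc2a1 read 94.2, 114, 104 and 86.9 and then 190.2, 216 and 183, a rise of 0.98 ± 0.18. Abcb1a read 22.7, 31, 25.8 and 33.5 and then 87.9, 64.1 and 66.2, a rise of 1.37 ± 0.23.

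Few microglial genes were called. Of 25 measured genes 3 rose and 1 fell, against 27.6% of all genes called, with a median of 0.24. After centring 9 rose and 1 fell. Ctss, the lysosomal protease cathepsin S, read 283, 300.1, 309.7 and 330.2 at P10 and 676, 684 and 796 later, a rise of 1.23 ± 0.12 (limma adjusted p = 5.5e-08). C1qb (0.59), a chain of complement C1q, and Csf1r (0.49), the survival receptor of microglia, rose by less, and Cx3cr1, the fractalkine receptor, fell (-0.77). A dimmer probe set of Csf1r was called in the opposite direction (-1.34, limma adjusted p = 0.000316), so the direction for this gene depended on the probe set. Aif1 (-0.21) and Tyrobp (-0.10) were not called. Of 40 MHC and interferon-induced genes 6 rose and 1 fell, or 12 and 0 after centring, among them B2m (0.69 ± 0.19) and Ifi27 (1.14 ± 0.19) as rises, of which B2m was not called without P28 1a.

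Genes of the choroid plexus, an epithelium close to the hippocampus, differed widely between pools of one age. Ttr, the transport protein that marks it, read 60.6, 2099.9, 1219 and 777 in the P10 pools and 4158, 243 and 852 in the late pools, and its change of 0.69 ± 0.93 was not called. Kl, klotho, another gene of this epithelium, read 16.7, 84.9, 64.3 and 35 at P10 and 556, 108 and 150.0 later, a rise of 2.30 ± 0.55 (limma adjusted p = 0.00283). Pool P28 1a was the highest of all 7 for both genes and P10 pool 1a the lowest for both, and the Kl call was lost without P28 1a. Igf2 and Igfbp2, made by choroid plexus and leptomeninges, were called to fall, with changes of -0.59 ± 0.21 and -0.79 ± 0.29, but their ages overlapped, the highest late reading was again in P28 1a, and both calls were lost without any one of P10 1b, P28 1b or P32 1a. The summed intensity of the 13 measured genes of the list was between 2216 and 5643 in the P10 pools and between 1647 and 7411 in the late pools, and its part in these results was not tested. Of 8 red blood cell genes Hba-a1 alone was called, a change of -0.61 ± 0.18 that was lost after centring and without P28 1a.

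Synapse genes rose in part. Of 32 measured synaptic vesicle and SNARE genes 11 rose and 4 fell, or 14 and 1 after centring, with a median of 0.28. Pclo, the giant scaffold piccolo of the active zone, read 483, 431, 402 and 485 at P10 and 1154, 1137 and 906 later, a rise of 1.24 ± 0.16. Sypl, a relative of synaptophysin, read 191, 189.5, 222 and 189 and then 543, 435 and 444, a rise of 1.25 ± 0.22. The late pools lay above every P10 pool in both. The vesicle and membrane fusion proteins Vamp1 (1.63), Vamp4 (0.96), Vamp3 (0.89), Napb (0.81), Syt2 (0.72), Snap25 (0.65) and Nsf (0.47) rose as well, and Rab3d (-1.12), Rab3b (-0.72), Stx1a (-0.66) and Syt5 (-0.58) fell. The Rab3d call was lost without any one of P10 1a, P10 2a, P28 1a and P28 1b. Syp itself, the commonest vesicle marker, read 415, 402, 416 and 390.3 and then 364, 397 and 423, a change of -0.04 ± 0.20 that was not called.

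Genes of inhibitory transmission included rises of GABA synthesis and of receptor subunits. On that list 5 of its 17 measured genes rose and 1 fell, with a median change of 0.25. Gad1, which makes GABA, read 847, 781, 851 and 934 at P10 and 1788, 1649 and 1661 later, a rise of 1.0 ± 0.10 (limma adjusted p = 1.69e-07). Slc12a2, the chloride importer NKCC1, read 322, 461, 409 and 283 and then 1190.4, 858 and 864, a rise of 1.41 ± 0.20 (limma adjusted p = 1.58e-05). Slc12a5, the neuronal chloride exporter KCC2, was dim at 39.7, 40.7, 44.8 and 42.5 and then 29.7, 43.2 and 27, and was not called. Gabrd, the delta subunit of extrasynaptic receptors, rose from 11.8, 9.99, 9.07 and 10.3 to 46.9, 29.1 and 38, by 1.86 ± 0.47 at a low level, and the beta subunit of glycine receptors Glrb rose by 0.61 ± 0.13. Slc12a2 is also made by oligodendrocytes and choroid plexus, whose markers are given above, and their part in its rise was not tested.

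Interneuron markers and neuropeptides were mixed. Of 29 measured genes 6 rose and 12 fell, and 8 went each way after centring. Cort, the neuropeptide cortistatin, read 327, 370.2, 439.5 and 374 at P10 and 112, 126 and 141 later, a change of -1.58 ± 0.24. Pvalb, parvalbumin of fast-spiking interneurons, read 369, 368, 396 and 356 and then 558, 673 and 584, a rise of 0.70 ± 0.12. Neither gene had overlapping ages. Calb2 (-1.08), Cnr1 (-1.22), Adcyap1 (-1.23) and Lhx6 (-0.85) fell. Npy (-0.42) and Sst (-0.47) fell by less, and the Npy call was lost after centring and without P28 1a.

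Glutamate receptor and postsynaptic genes were called about as often as all genes. Of 22 measured genes 2 rose and 4 fell, against 27.6% of all genes called, while after centring 2 rose and 1 fell. Grik5, a kainate receptor subunit, read 542, 567, 638 and 689 at P10 and 224, 355 and 275 later, a change of -1.12 ± 0.23. Dlg1, the scaffold SAP97, rose by 0.77 ± 0.14 and the AMPA receptor subunit Gria2 by 0.67 ± 0.10. Grin2b, the juvenile NMDA receptor subunit, read 67.1, 58.5, 40.2 and 75.1 and then 39.3, 49 and 19.5, with overlap, and the called change of -0.81 ± 0.27 was lost after quantile normalization, after centring and without any one of P10 1a, P10 2b and P32 1a. Grin2a, the adult counterpart, was dim at 26.9, 34.2, 11.9 and 32.6 and then 20.1, 40.3 and 44.5, and its change of 0.44 ± 0.48 was not called. Grin2c changed by 0.14 ± 0.18 and was not called either.

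Calcium signalling and channel genes gave individual changes rather than a common one. Of 21 calcium/calmodulin kinase, protein kinase C and calcineurin genes 5 rose and 3 fell, against 27.6% of all genes called. Ppp3r1, the regulatory subunit of calcineurin, read 1786, 1664, 1402 and 1652 at P10 and 3429, 3386 and 3223 later, a rise of 1.05 ± 0.12, and its catalytic partner Ppp3ca rose by 0.63 ± 0.10. Camk4 fell by 1.15 ± 0.25. Camk2a, the abundant kinase of excitatory synapses, gave erratic readings of 12.2, 8.67, 26.2 and 44.4 and then 19.2, 131 and 10.9, and was not called, while a dimmer probe set of the gene was called higher (1.93, limma adjusted p = 0.0202). Of 30 voltage-gated channel genes 4 rose and 3 fell, again against 27.6% of all genes. Kcnab2, a potassium channel beta subunit, read 384, 457, 445 and 408 at P10 and 1186, 1321 and 1179 later, a rise of 1.54 ± 0.16. Scn1a, the sodium channel Nav1.1, rose by 1.32 ± 0.15, from 168, 174, 229 and 195 to 504, 422 and 507. Cacna1a, the pore of P/Q-type calcium channels, was the largest fall by the rule for named genes, at 86.1, 77.2, 79.4 and 103 and then 3.68, 37.7 and 9.02, a change of -2.99 ± 0.53 with late pools that spread widely.

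Several immediate early genes, which neurons switch on with activity, rose. Of 28 measured genes 10 rose and 0 fell, with a median of 0.36. Egr1, a zinc finger factor, read 163, 187, 193 and 164 in the P10 pools and 493, 531 and 472 in the late pools, a rise of 1.5 ± 0.18 (limma adjusted p = 1.15e-06). Nr4a1, an orphan nuclear receptor, read 78.3, 99.2, 64.2 and 105 and then 194, 213 and 259.7, a rise of 1.37 ± 0.22. Fos read 64.8, 61.7, 52.9 and 70.4 and then 125, 105 and 178, a rise of 1.10 ± 0.24. No late pool of these 3 genes overlapped a P10 pool. The enzyme Ptgs2 (1.69), the neurotrophin Bdnf (0.69), Jun (0.69) and the phosphatase Dusp1 (0.51) rose too. Junb (-0.01), Nr4a2 (-0.36) and Homer1 (-0.35) were not called.

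The Ras and MAP kinase pathway, in which neurofibromin acts, showed changes in both directions. Of 54 measured genes 12 rose and 13 fell, against 13.0% of all genes higher and 14.6% lower. The median was -0.11, and after centring 15 rose and 8 fell. Among activators of Ras, Rasgrf1, a calcium-responsive exchange factor of neurons, read 228, 246, 262 and 219 at P10 and 790.2, 915 and 991 later, a rise of 1.91 ± 0.20 (limma adjusted p = 1.69e-07). Rasgrp2, an exchange factor for the related GTPase Rap, read 115, 125, 138 and 151 and then 37, 51.9 and 50.5, a change of -1.52 ± 0.24. Both genes had ages that did not overlap. Sos1 (0.05) and Sos2 (0.17), the exchange factors used by growth factor receptors, were not called.

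Of the other proteins that switch Ras off, the GTPase-activating protein Rasa1 rose (0.47 ± 0.12), while Rasa3 (-0.11) and Rasal1 (-0.24) were not called. Of the GTPases, Nras fell (-0.98 ± 0.12) and Rras (0.75 ± 0.25) and Rap1a (0.87 ± 0.22) rose. Further down the cascade Map2k1, the kinase MEK1, read 310.0, 277, 307 and 296 at P10 and 866, 879 and 874 later, a rise of 1.55 ± 0.14 or 2.93-fold (limma adjusted p = 1.41e-08). Its relative Map2k2 fell slightly (-0.37 ± 0.13). Mapk7 was called to fall (-1.74 ± 0.54) from 23.6, 90.6, 71.9 and 74.4 to 19.7, 19.4 and 13.7, a call that was lost without any one of the pools P10 1b, P10 2b and P32 1a. Nf1 changed by 0.65 ± 0.72 and was not called, at the low readings given above.

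Genes of metabolism and protein care were less uniform. Of 25 glycolysis and lactate genes 10 rose and 1 fell. Eno2, the neuronal enolase, read 937, 959, 914 and 892 at P10 and 1863, 1859 and 1959.9 later, a rise of 1.03 ± 0.12, and Gpd1, which shunts glycolytic carbon to glycerol, rose by 1.19 ± 0.20. Of 18 cholesterol synthesis genes 6 fell and 0 rose. Fdps, farnesyl diphosphate synthase, read 1159.8, 1112, 1221 and 1258 and then 583, 629 and 704, a change of -0.90 ± 0.09, and Nsdhl (-0.95 ± 0.12), Tm7sf2 (-0.92 ± 0.13) and Mvd (-0.92 ± 0.19) fell. Of 48 heat shock, chaperone and metallothionein genes 15 rose and 4 fell, or 24 and 2 after centring. Hspa1b, an inducible heat shock protein, read 43.9, 40.4, 41.2 and 46.6 and then 123, 140.0 and 111, a rise of 1.53 ± 0.17.

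Of 61 mitochondrial oxidative phosphorylation genes 9 rose and 14 fell, and of 55 splicing genes 8 rose and 13 fell, balances that turned to 19 against 7 and 16 against 7 after centring. Sdha, a subunit of complex II, rose by 1.11 ± 0.12 and Atp5pb, of the ATP synthase, fell by 1.01 ± 0.27. Of 33 ribosomal protein genes 1 rose and 11 fell, or 4 and 5 after centring. Rplp0, a stalk protein of the large subunit, read 4526, 4049, 4503 and 4487 at P10 and 2117, 2357 and 2425 later, a change of -0.93 ± 0.10. Of 39 proteasome genes 9 rose and 6 fell, or 13 and 3 after centring, with Psme3 (0.84 ± 0.17) and Psme1 (-0.66 ± 0.12), activator subunits, on opposite sides.

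Growth factor genes and remaining lists added single changes. Of 51 growth factor and neurotrophin receptor genes 8 rose and 13 fell, turning to 11 and 8 after centring. Fgf13, an intracellular FGF that binds sodium channels and microtubules, read 227, 185, 270.2 and 301 at P10 and 44.9, 55.4 and 36.7 later, a change of -2.42 ± 0.18 (limma adjusted p = 1.03e-09). Of 30 insulin-like growth factor and imprinted genes 3 rose and 4 fell, or 3 and 2 after centring, with Igfbp6 (2.06 ± 0.46) higher and Nnat (-1.24 ± 0.18) lower. Of 8 sodium pump genes Atp1b1 rose (1.08 ± 0.12), and Fxyd7, a regulator of the pump in neurons, fell by 2.73 ± 0.25, from 773, 994, 1001 and 822 to 105, 169 and 137. Of 16 S100 and annexin genes 2 rose and 3 fell, or 5 and 3 after centring, with S100a10 (-1.59 ± 0.16) lower and S100b higher. The list of the 15 largest falls also held Gng4, a G protein gamma subunit (-2.26 ± 0.38), the calpain gene Capn1 (-2.14 ± 0.26), the co-chaperone Dnajb5 (-2.42 ± 0.59) and the mitochondrial dicarboxylate carrier Slc25a10 (-2.10 ± 0.38). The list of the largest rises ended with B3gnt2, a glycosyltransferase that extends lactosamine chains (2.15 ± 0.39).

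The question of whether Nf1 heterozygosity alters this maturation was addressed by setting the heterozygous change against that of the wild-type pools. Most probe sets called in one genotype were also called in the other. In wild type 2799 probe sets were called (22.5%), 1289 higher (10.4%) and 1510 lower (12.2%), and 1900 were called in both, 1897 of them in the same direction. They make up 62.9% of the heterozygous and 67.9% of the wild-type calls. Of the 3021 heterozygous calls 2904 had the same sign in wild type, but the same share over all probe sets was not counted. Pearson's r between the 2 changes over probe sets was 0.583, a description without a test, since probe sets are not independent. No pool was shared between the genotypes.

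The difference between the 2 changes was tested in the same limma model, and no probe set was called after Benjamini-Hochberg adjustment (0 of 12422), while 822 (6.62%) had an unadjusted p below 0.05. The median standard error of the difference was 0.35, against 0.25 for the heterozygous change alone. In data simulated with known changes in 200 of 12422 probe sets, the test of the difference recovered 25.4% of log2 changes of 1. It recovered 69.7% of log2 changes of 2. Under that setting many differences of these sizes would be missed with these pools.

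**Figure D3:**
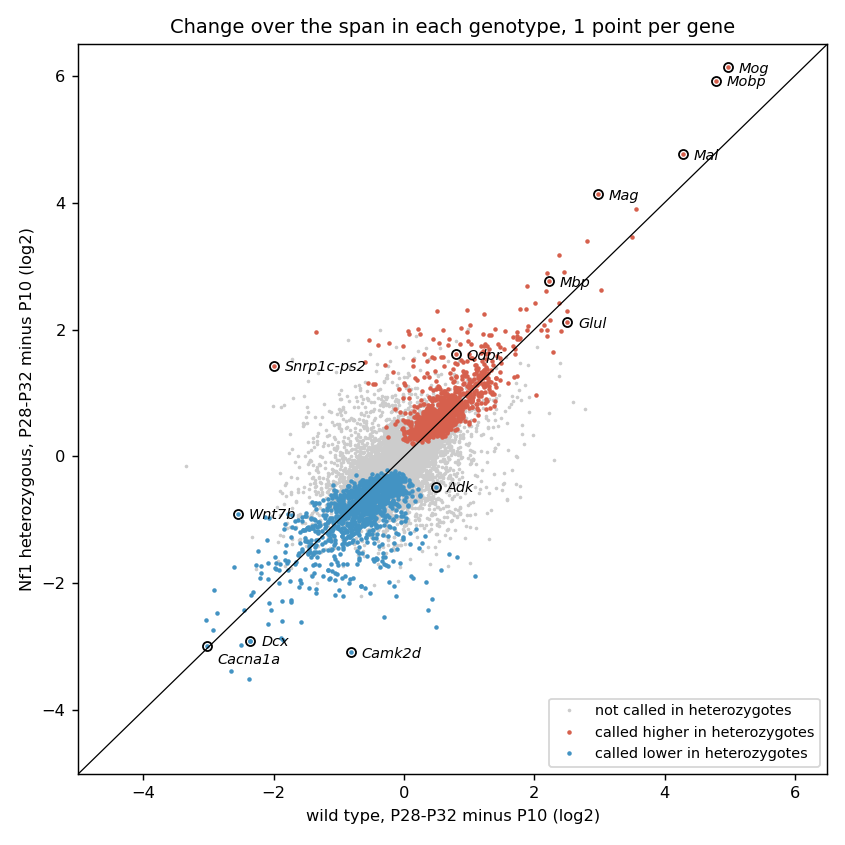
Change from P10 to P28-P32 in wild type (x axis) and in Nf1 heterozygotes (y axis), both in log2, with 1 point per gene for 8251 genes, red and blue for genes called higher and lower in heterozygotes, grey for genes not called, and the diagonal marking equal changes. Most called genes lie near the diagonal, and Mog, Mobp, Mal and Mag lie above it, with none of the differences called.

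Myelin genes had larger point estimates of change in heterozygotes. For Mog the wild-type rise was 4.97 against 6.13 in heterozygotes, a difference of 1.16 (95% interval -0.12 to 2.44, limma adjusted p = 0.773). For Mbp the rises were 2.23 and 2.76, a difference of 0.53 (95% interval 0.17 to 0.89, limma adjusted p = 0.57). Mbp read 649.7 to 689 in the wild-type P10 pools and 474 to 602 in the heterozygous ones, and 2828 to 3367 and 3414 to 3801 at the later ages, so neither age overlapped between genotypes. All 8 myelin structural genes that rose had the larger change in heterozygotes, 7 of them with a lower P10 mean and 6 with a higher late mean there. Among all genes 48.5% had a higher value of the change in heterozygotes, 51.5% a lower P10 mean and 44.4% a higher late mean. The 8 genes were chosen for being called higher in heterozygotes, which by itself favours these directions. The shares of all genes carry no such choice, so setting the 8 genes against them cannot show a difference between genotypes. The smallest adjusted p of the difference among the 8 genes was 0.57, and genes of one sheath in the same pools are not independent.

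**Figure D4:**
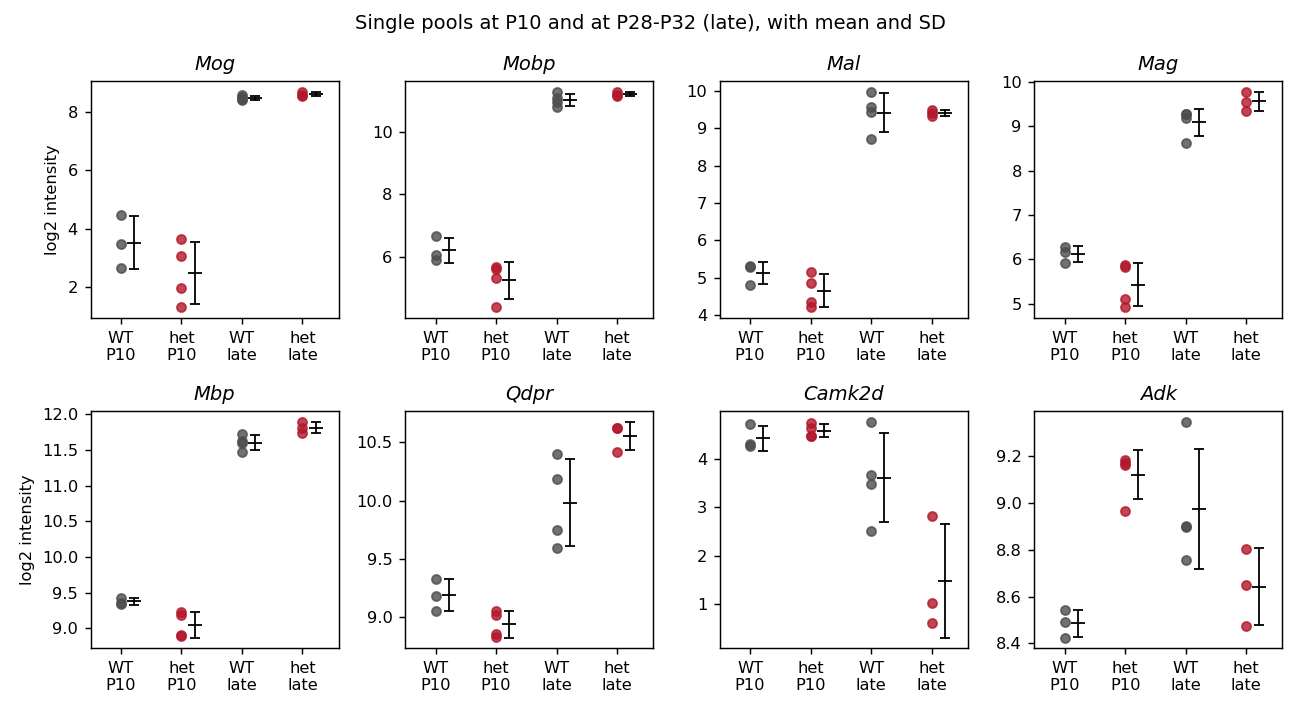
Log2 intensity of single pools (points) with the mean and SD of each group (bars) for 8 genes at P10 and at P28-P32 in wild type (WT, grey, 3 and 4 pools) and Nf1 heterozygotes (het, red, 4 and 3 pools), y axis with its own scale in each panel. The 5 myelin genes of the first panels have lower heterozygous means at P10, and Qdpr, Camk2d and Adk were among the 5 genes with the smallest p of the difference between genotypes, none of which was called.

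The 5 genes with the smallest p of the difference were Adk, Qdpr, Degs2, Camk2d and Snrp1c-ps2. Adk, adenosine kinase, which clears the inhibitory modulator adenosine, read 576, 500.2, 573 and 581 in the heterozygous P10 pools and 356, 401 and 447 in the late ones, a called change of -0.48 ± 0.13 that was lost without P28 1a. In wild type it read 344 to 372 at P10 and 432 to 650.0 later, a rise of 0.49. The difference of -0.97 (95% interval -1.34 to -0.60) had a limma adjusted p of 0.112. Other, dimmer probe sets of Adk were not called in heterozygotes. They changed by 0.70 and -0.77 there and by 0.98 and 0.33 in wild type, so the opposite directions in the genotypes rest on the brightest probe set and a dim one. The genotypes did not overlap at P10, where heterozygous pools were higher, and overlapped later.

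Qdpr, dihydropteridine reductase, read 531, 463, 520.0 and 455 and then 1575, 1577 and 1366 in heterozygotes, a rise of 1.61 ± 0.11. The wild-type ranges were 532 to 644 and 773 to 1351, a rise of 0.79, so the difference was 0.82 (95% interval 0.50 to 1.14, limma adjusted p = 0.112). Camk2d, a calcium/calmodulin kinase subunit, read 24.8, 22.1, 26.7 and 22.2 and then 2.03, 1.54 and 7.1 in heterozygotes, and 5.73 to 27 in the late wild-type pools, a difference of -2.27 at dim readings (limma adjusted p = 0.17). Degs2, a sphingolipid desaturase, changed by -0.41 ± 0.28 in heterozygotes, which was not called, and rose by 1.54 in wild type. The pseudogene Snrp1c-ps2 had heterozygous and wild-type changes of 1.43 and -1.99, the former not called when any single pool other than P10 1a was left out, and its probe set may read transcripts of related sequence.

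The late group joined P28 and P32. Between the P32 pool and the P28 pools 1 of 12422 probe sets was called (0.00805%), a second and dimmer probe set of the mitochondrial subunit gene Ndufa3 with a change of -2.32 (limma adjusted p = 0.00318), and 364 (2.93%) had an unadjusted p below 0.05. That contrast has a single P32 pool, which was taken to vary like the other groups. Among P10 pools, those with title number 2 against those with number 1 gave 0 calls by limma and 552 probe sets (4.44%) at an unadjusted p below 0.05. All late heterozygous pools carried number 1, and with P10 pools of number 1 alone 2112 probe sets were called over the span, against 2178 with P10 pools of number 2 alone.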

How the data were processed

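The deposited value table gave 1 intensity per probe set and array on the Affymetrix MG-U74Av2 design; per its values, the authors' intensities had been scaled to a common trimmed mean (2% trimmed from each end). For background correction, probe summary and software the sources used here give nothing, and detection calls and scan batches were not used. Of 12488 probe sets 66 were controls. Values below 1 (1.68%) were set to 1 before log2. A group-means model over all 30 arrays was fitted with limma 3.58.1 in R 4.3.3 (eBayes with intensity trend, two-sided), without a filter, and each late pool weighed equally. The test was tried on simulated data in which 200 of 12422 probe sets were changed. There 44.8% of log2 changes of 1 were recovered in the heterozygous comparison and 4 of 96 calls were false. Far more probe sets were called in the real comparison, so the share recovered does not carry over to it. Probe sets were named from the platform annotation updated through RefSeq (10833 with 1 symbol, 396 with several, 1193 with none), and the brightest stood for a gene. Genes named were the 15 largest rises and falls with a mean log2 of at least 5 and ages that did not overlap, up to 4 called members of each list, known markers and the 5 smallest p of the genotype difference. Further list members were chosen after their values were seen. The members and lists were chosen with earlier results of these data known. Alternatives covered the scale, a filter, leaving out pools, array weights, the title codes and control probe ratios.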

Additional observations from a re-analysis of the deposited data

Results flagged for a closer look

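Among the 4 heterozygous P10 pools, Dixon's ratio (the gap of an extreme pool to its nearest neighbour over the whole range) was examined for 171 genes and 39 list scores. Of these 12 exceeded the critical value, a share close to the 1 in 20 that chance gives. They are listed for inspection only. In 7 of the 12, P10 pool 2b stood apart. For genes, pool 2b was high in Slc25a10 (ratio 0.852, intensity 109) and Ndufb3 (0.873, 615) and low in Fgfr3 (0.887, 0.746), Ncam1 (0.873, 2042) and S100a6 (0.929, 189.9). Pool 1b was low in Csf1r (0.882, 218), Rplp0 (0.922, 4049) and Adk (0.91, 500.2). Pool 2a was high in Sypl (0.937, 222) and pool 1a low in Kcna6 (0.859, 25.8). For list scores, pool 2b stood apart for the GABA receptor, GABA synthesis and chloride cotransporter list (0.871) and for the calcium/calmodulin kinase, protein kinase C and calcineurin list (0.859). None of these 10 genes lost its call without the pool named beside it, except Fgfr3.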

How the results depend on the processing

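The number of probe sets called over the heterozygous span stayed between 2112 and 3728 in every alternative run, against 3021, and between 2171 and 2767 when single pools were left out. The title codes are shared between ages, and the labels do not say whether they pair the pools. The deviations of pools of one code correlated at -0.047, 0.072 and -0.015, and those of pools of unlike code at -0.048 to 0.05. With so few pools these values cannot exclude pairing. With the code as a replicate block 2297 probe sets were called. For the difference between genotypes, with 0 calls, the replicate block gave 1 call (Erdr1), leaving out the heterozygous P18 pools 1 (Adk), array weights 2 (Adk and Qdpr), a fit of the compared pools alone 5 (Snrp1c-ps2, Peg3, Adk, Qdpr and Erdr1), and the Actb ratio, added after seeing the data, 3. Leaving out single pools gave 0 to 2. P32 against P28, with 1 call, gave 0 on log2(value + 32) and 0 to 1 without single pools, and the comparison of P10 title numbers, with 0 calls, gave 3 to 7 when single P10 pools were left out and 0 in its other alternatives. The cause of these changes was not tested. Of 162 named genes called, 124 kept their call in every alternative that tested them, and of 3697 values 250 lost it and 0 reversed. Calls lost in 10 or more alternatives were those of Fxyd2, Igfbp2, Nos3, Has2, Grin2d, Igf2, Fgfr3, Sema3f, Snrp1c-ps2, Grin2b, Vip, Rab3d and Rps29. Of 72 further probe sets of called named genes 53 had the same sign, 29 of them called, and 4 were called in the opposite direction (Csf1r, Glul, Mag and Pcdh7). Without detection calls, folds of dim genes such as Mog and Cdk1 depend on the scale.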
